A study of Mus musculus with 6 samples.

Results

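Chemokine genes were compared between macrophages sorted from pancreatic islets and macrophages sorted from epididymal white adipose tissue (a visceral fat pad of male mice). The set consists of Ccl3, Ccl4, Ccl5, Cxcl1, Cxcl2, Cxcl3, Cxcl9, Cxcl10, Cxcl16 and Pf4, which were taken by symbol from the count table and make up 10 of its 50600 genes. Both groups came from male C57BL/6J mice aged 12 weeks and fed a chow diet, with no treatment, and each tissue gave 3 libraries, numbered 2, 4 and 6. Cells of both groups were sorted as live (DAPI-negative) and positive for CD45, a surface protein of blood-lineage cells, and for the macrophage proteins F4/80 and CD64. Batch labels pair the islet and fat libraries of the same number, and the main test used tissue alone, with the pairing as an alternative. The labels used here do not state whether animals were pooled for a library, so p-values set tissue differences against the spread between these libraries.

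Chemokines are small secreted proteins that bind G protein-coupled receptors and direct the movement of white blood cells. The CC and CXC families are named for the spacing of their first cysteines. In macrophages most of them are transcribed at low level at rest and are induced quickly by inflammatory signals through NF-kB, or by interferons. Ccl3, Ccl4 and Ccl5 encode CC chemokines that draw monocytes, T cells and natural killer cells. Cxcl1, Cxcl2 and Cxcl3 encode ligands of CXCR2 and draw neutrophils. Cxcl9 and Cxcl10 encode interferon-induced ligands of CXCR3, a receptor of activated T cells. Cxcl16 encodes a membrane-anchored chemokine that binds CXCR6 and can be shed from the cell surface. Pf4, platelet factor 4, encodes CXCL4, which is best known from platelet granules and is also transcribed by some tissue macrophages.

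The counts per library ranged from 4089980 to 6923475 in islet and from 7450890 to 9235591 in fat macrophages. CPM values are counts scaled to a common library total after TMM adjustment, which allows for differences in library make-up. In bulk RNA, fewer cells of a type and less RNA per cell cannot be told apart. The 10 macrophage marker genes were present in every library, with a summed level of 7442 to 12057 CPM in islet and 9363 to 12244 CPM in fat macrophages. Of these, Mertk and Lyz2 fell and 8 did not pass the test. Transcripts of 10 islet hormone and endocrine granule genes summed to 3585 to 9643 CPM in the islet libraries, against at most 6.77 CPM in the fat libraries. Islet libraries 2 and 4 stood apart from islet library 6 in 18 heat shock and immediate early genes, which summed to 122600, 131097 and 9043 CPM in islet libraries 2, 4 and 6 and to 19558 to 21662 CPM in the fat libraries. That sum was carried by a few heat shock genes in islet libraries 2 and 4. In the fat libraries it came mostly from immediate early genes, such as Fos at 3083, 3241 and 3587 CPM in libraries 2, 4 and 6. The sum therefore joined opposite changes and is not a level of heat shock transcripts in fat macrophages. All 9 heat shock genes of the list rose, and of its 9 immediate early genes 6 fell and 3 did not pass. Hspa1b, which encodes an inducible HSP70 chaperone, was at 32628, 50147 and 1406 CPM in islet libraries 2, 4 and 6, against 24.2, 49.8 and 20.2 CPM in the fat libraries (edgeR adjusted p = 0.00186). Fosb, which encodes an AP-1 transcription factor subunit, was at 110, 47.3 and 46.5 CPM in the islet libraries, against 1615, 1530 and 1793 CPM in the fat libraries (edgeR adjusted p = 2.78e-04). Dusp1, which encodes a MAP kinase phosphatase, was at 367, 466 and 302 CPM in the islet libraries, against 3149, 2928 and 3426 CPM in the fat libraries (edgeR adjusted p = 4.06e-04). Hspa1b has a near-identical copy in Hspa1a, and its own share of their reads is uncertain. Hspa1b was above the fat range in islet library 6 as well, and Fosb did not set islet library 4 apart from library 6. These 6 immediate early genes moved with tissue in the direction of Cxcl1 and Pf4, and their part in the chemokine results was not tested.

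The set split by direction. Ccl3, Ccl4, Ccl5, Cxcl3, Cxcl10 and Cxcl16 were higher in islet macrophages, and Cxcl1 and Pf4 were lower. Cxcl2 and Cxcl9 did not pass the test. All 10 genes passed the filter on low counts, and 6 of 10 rose and 2 of 10 fell in edgeR's quasi-likelihood test at a Benjamini-Hochberg adjusted p under 0.05. Over all 12152 genes tested, 19.4% passed, with 8.97% higher and 10.5% lower. The libraries of the tissues did not overlap for 5 genes that were higher and 3 that were lower in islet macrophages, while the corresponding shares over all genes tested were 18.2% and 22.3%. The median log2 difference, islet minus fat, was 2.90 over the 10 chemokines and 0.01 over all genes tested. Within pairs of the same number, which the labels also mark as batches, 6 genes were higher in islet macrophages in all 3 pairs, Cxcl1, Cxcl2 and Pf4 were lower in all 3, and Cxcl9 was higher in 2. The log2 ratio within pairs, with 0.5 CPM added to both values, was 1.62 to 3.23 for Ccl3, 3.62 to 4.61 for Ccl4, 3.37 to 7.80 for Ccl5, 2.37 to 4.53 for Cxcl10, 2.42 to 3.61 for Cxcl16 and 0.077 to 4.04 for Cxcl3. It was -2.38 to 1.90 for Cxcl9, -1.96 to -0.71 for Cxcl2 and -7.58 to -6.00 for Pf4, and for Cxcl1 -3.07 and -2.38 in pairs 2 and 6, the pairs with islet counts. When 1 library was left out, 5 chemokines rose without islet replicate 2, without islet replicate 6, and without each of the fat replicates in turn. Leaving out islet replicate 2 or a fat replicate left 1 that fell, and leaving out islet replicate 6 gave 3. With islet libraries 2 and 4 both left out, 6 rose and 3 fell, in a fit where the lone islet library takes its spread from the fat libraries.

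**Figure D1:**
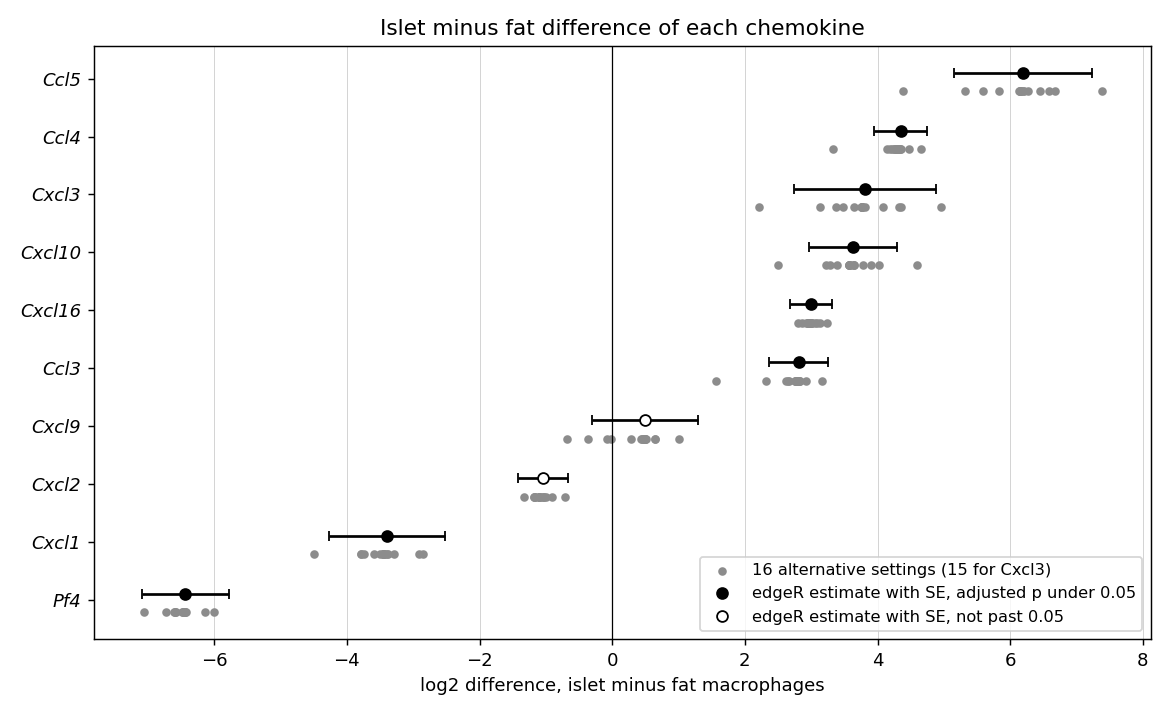
The log2 difference, islet minus fat macrophages, is on the horizontal axis for each of the 10 chemokines, as the edgeR estimate with its standard error (black, filled where the adjusted p is under 0.05) and under each alternative setting (grey). Estimates run from 6.20 for Ccl5 to -6.44 for Pf4, and the grey points of Cxcl9 lie on both sides of 0.

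Levels of different genes were set side by side as CPM per kilobase of exon, since longer transcripts gather more reads. On this scale the 10 genes together came to 1785, 1389 and 1316 in islet libraries 2, 4 and 6, against 1308, 1852 and 1190 in fat libraries 2, 4 and 6, so the tissues overlapped in the sum. The genes behind the sum differed. Ccl3, Ccl4 and Cxcl16 together made up 86.0%, 89.4% and 60.2% of it in islet libraries 2, 4 and 6, against 10.2%, 6.43% and 9.40% in the fat libraries. Pf4 and Cxcl2 together made up 11.0%, 6.38% and 13.4% in the islet libraries, against 83.3%, 89.3% and 85.9% in the fat libraries.

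In islet macrophages the order by mean CPM per kilobase was Ccl4 (462 ± 191, SD, n = 3), Ccl3 (445 ± 250), Cxcl16 (283 ± 61.5), Cxcl2 (142 ± 65.4), Ccl5 (104 ± 129), Cxcl10 (34.4 ± 32.4), Pf4 (11.3 ± 8.28), Cxcl1 (6.12 ± 5.31), Cxcl3 (4.95 ± 5.90) and Cxcl9 (3.28 ± 3.40). Only Cxcl16 and Cxcl2 were neighbours in that order whose libraries did not overlap. In fat macrophages the order was Pf4 (961 ± 368, SD, n = 3), Cxcl2 (294 ± 23.9), Cxcl1 (66.5 ± 14.9), Ccl3 (63.2 ± 10.8), Cxcl16 (35.5 ± 8.33), Ccl4 (22.6 ± 3.89), Cxcl10 (2.78 ± 0.67), Cxcl9 (2.30 ± 0.52), Ccl5 (1.42 ± 0.74) and Cxcl3 (0.35 ± 0.20). There the libraries overlapped between Cxcl1 and Ccl3, between Cxcl10 and Cxcl9 and between Cxcl9 and Ccl5, and the other neighbours were apart. With the longest transcript in place of all exons, Ccl5 stood above Cxcl2 in islet macrophages (150 ± 185 against 143 ± 65.4 CPM per kilobase), and the order in fat macrophages was the same.

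**Figure D2:**
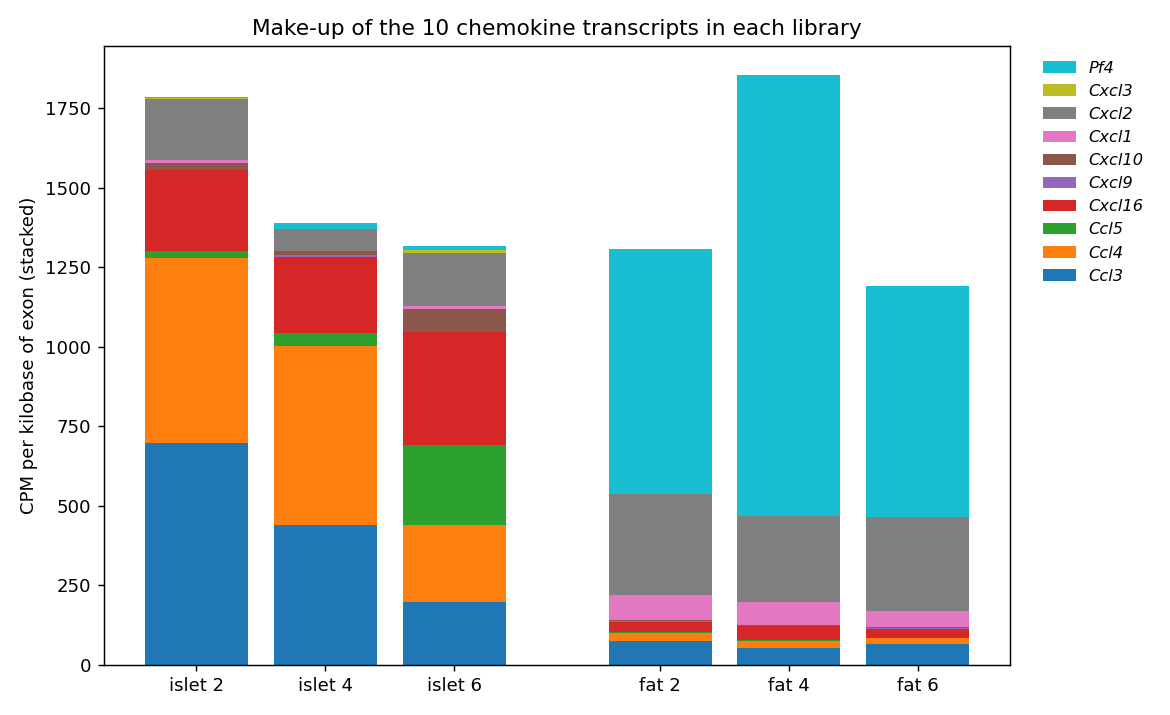
Stacked bars give the level of each of the 10 chemokines in CPM per kilobase of exon, with the 3 islet libraries on the left and the 3 fat libraries on the right. Ccl3, Ccl4 and Cxcl16 fill most of the islet bars, and Pf4 alone makes up 59.1% to 74.8% of the fat bars.

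Ccl3 and Ccl4 encode macrophage inflammatory proteins 1 alpha and 1 beta and lie 13.2 kb apart on chromosome 11. Ccl3 (ENSMUSG00000000982.5, GRCm38 chromosome 11, 83647844 to 83649355, minus strand) was at 535, 337 and 152 CPM in islet libraries 2, 4 and 6, against 56.4, 39.8 and 49.2 CPM in fat libraries 2, 4 and 6. Every islet library was above every fat library, and islet library 6 was the lowest of the islet libraries. Ccl3 was 7.04-fold higher in islet macrophages, a log2 difference of 2.81 ± 0.44 (SE, edgeR adjusted p = 0.0031). Ccl4 (ENSMUSG00000018930.3, chromosome 11, 83662584 to 83664683, plus strand) was at 384, 371 and 159 CPM in the islet libraries, against 17.6, 14.7 and 12.5 CPM in the fat libraries. The groups did not overlap, and islet library 6 was again the lowest of the islet libraries. Ccl4 was 20.4-fold higher, a log2 difference of 4.35 ± 0.40 (SE, edgeR adjusted p = 2.49e-04).

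The ratio of Ccl4 to Ccl3, on the scale of CPM per kilobase, was 0.833, 1.28 and 1.22 in islet libraries 2, 4 and 6, against 0.362, 0.429 and 0.294 in the fat libraries. The ratios of the tissues did not overlap, with relatively more Ccl4 in every islet library. Within islet macrophages the levels of Ccl3 and Ccl4 had the order 2 above 4 above 6 over the libraries. The endocrine sum had it too, at 9643, 6284 and 3585 CPM, and was led by Ins2 (5523, 3509 and 1884 CPM). Sst and Ppy ran the opposite way, and Chgb was lowest in library 4. Of the heat shock genes, Hsp90aa1 had the order of Ccl3 (14004, 6003 and 1872 CPM), as did most of the others, Hspa8 and Hspd1 among them. Hspa1a, Hspa1b and Dnajb1 were highest in library 4. The part of these transcripts in the Ccl3 and Ccl4 results was not tested. With islet libraries 2 and 4 left out, the log2 difference was 1.57 for Ccl3 and 3.33 for Ccl4, in a fit that holds a lone islet library.

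Ccl5 encodes RANTES, a CC chemokine that T cells and natural killer cells also make in quantity. Ccl5 (ENSMUSG00000035042.2, chromosome 11, 83525778 to 83530518, minus strand) had 101, 132 and 1801 counts in islet libraries 2, 4 and 6, against 16, 15 and 5 counts in fat libraries 2, 4 and 6. These were 20.4, 37.8 and 243 CPM in the islet libraries, against 1.51, 1.99 and 0.588 CPM in the fat libraries. The groups did not overlap, and islet library 6 alone was far above the other islet libraries, 8.34 times their mean. Ccl5 had the largest fitted increase of the 10 genes, 73.3-fold, with a log2 difference of 6.20 ± 1.04 (SE, edgeR adjusted p = 0.00414). Without islet replicate 6 the log2 difference was 4.39 (edgeR adjusted p = 3.04e-04), and limma voom gave an adjusted p = 0.0562.

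Of 13 marker genes of T and natural killer cells, 12 had 0 counts in all 3 islet libraries, and the list held 1 count there in all. It summed to at most 0.135 CPM in the islet libraries, against 6.77 to 13.4 CPM in the fat libraries. Cd3e, Cd3d, Cd3g, Nkg7 and Ncr1 were among the markers with 0 islet counts.

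Cxcl16 had the smallest spread over the islet libraries among the genes that rose. Cxcl16 (ENSMUSG00000018920.11, chromosome 11, 70453983 to 70459984, minus strand) was at 769, 725 and 1067 CPM in islet libraries 2, 4 and 6, against 99.1, 135 and 86.9 CPM in fat libraries 2, 4 and 6. The groups did not overlap, and the highest islet library was 1.47 times the lowest. Cxcl16 was 7.97-fold higher in islet macrophages, a log2 difference of 2.99 ± 0.31 (SE, edgeR adjusted p = 4.08e-04), and log2 differences lay between 2.80 and 3.24 under all 16 alternatives. Its exons overlap those of Zmynd15 on the opposite strand over 552 bases, 18.3% of their length. Zmynd15 was at 109, 107 and 157 CPM in the islet libraries, against 5.31 to 9.93 CPM in the fat libraries, also higher in islet macrophages (log2 4.00 ± 0.33, SE, edgeR adjusted p = 1.58e-04). The library kit keeps strand, but the labels used here do not say whether counting used strand, so reads in the shared stretch are uncertain. Adam17, which encodes a protease that sheds membrane proteins, was at 446, 267 and 448 CPM in the islet libraries, against 110, 101 and 109 CPM in the fat libraries, and rose (log2 1.86 ± 0.28, edgeR adjusted p = 0.00244). Adam10, the protease described for constitutive shedding of CXCL16, was at 271, 370 and 217 CPM in islet against 149, 139 and 177 CPM in fat libraries (edgeR adjusted p = 0.0522).

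Cxcl10 and Cxcl9 are neighbours on chromosome 5 that share a receptor. Cxcl10 rose and Cxcl9 did not pass the test, and the difference between the genes was not tested. Cxcl10 (ENSMUSG00000034855.13, chromosome 5, 92346638 to 92348889, minus strand) was at 45.4, 26.1 and 161 CPM in islet libraries 2, 4 and 6, against 7.66, 4.64 and 6.47 CPM in fat libraries 2, 4 and 6. The groups did not overlap, and islet library 6 was 4.51 times the mean of the other islet libraries. Cxcl10 was 12.4-fold higher in islet macrophages, a log2 difference of 3.63 ± 0.66 (SE, edgeR adjusted p = 0.00597), and 2.50 without islet replicate 6 (edgeR adjusted p = 9.40e-04). Its exons overlap those of Art3 on the opposite strand over 133 bases, and Art3 had at most 1.21 CPM in an islet library and 2.27 CPM in a fat library. Cxcl9 (ENSMUSG00000029417.9, chromosome 5, 92321347 to 92328079, minus strand) had 6, 74 and 54 counts in the islet libraries, against 89, 40 and 60 counts in the fat libraries. As CPM these were 1.21, 21.2 and 7.27 in islet against 8.42, 5.31 and 7.06 in fat libraries, so the islet libraries lay below, above and within the fat range. Its log2 difference was 0.49 ± 0.80 (SE, edgeR adjusted p = 0.72), and the sign turned under 4 of 16 alternatives. The ratio of Cxcl10 to Cxcl9, in CPM per kilobase, was 50.2, 1.65 and 29.6 in islet libraries 2, 4 and 6, against 1.22, 1.17 and 1.23 in the fat libraries.

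The stretches before the starts of these neighbours are shown because the genes are neighbours that share a receptor and an inducer. Each is the 250 bases upstream of the RefSeq start in GRCm38.p6, read in the direction of the gene. Capitals mark the longest run of bases that the pair has in common.
Cxcl10 promoter, chr5:92348890-92349139, minus strand: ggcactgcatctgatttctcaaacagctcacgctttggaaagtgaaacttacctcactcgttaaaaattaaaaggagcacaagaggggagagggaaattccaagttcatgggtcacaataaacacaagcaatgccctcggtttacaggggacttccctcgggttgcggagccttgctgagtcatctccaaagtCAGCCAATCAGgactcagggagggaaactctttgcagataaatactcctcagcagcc
Cxcl9 promoter, chr5:92328080-92328329, minus strand: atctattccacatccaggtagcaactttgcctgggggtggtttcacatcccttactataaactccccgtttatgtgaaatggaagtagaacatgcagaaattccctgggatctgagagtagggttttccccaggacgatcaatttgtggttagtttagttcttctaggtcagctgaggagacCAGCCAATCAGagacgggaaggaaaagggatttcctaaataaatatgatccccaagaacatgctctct
The shared run, CAGCCAATCAG, lies 57 to 47 bases before the start of Cxcl10 and 68 to 58 bases before the start of Cxcl9. It contains the letters CCAAT, a common promoter element. Of all 32851 promoter stretches of that length, 0.755% hold the run on either strand. A shared run is a description of letters and does not show that a factor binds there.

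The ligands of the neutrophil receptor CXCR2 did not share a direction. Cxcl1 (ENSMUSG00000029380.11, chromosome 5, 90891241 to 90893115, plus strand) had 84, 0 and 130 counts in islet libraries 2, 4 and 6, against 1542, 1021 and 791 counts in fat libraries 2, 4 and 6. These were 16.9, 0 and 17.5 CPM in the islet libraries, against 146, 135 and 93.1 CPM in the fat libraries. In islet library 4, 0 counts allow up to 3 counts, or 0.86 CPM, a limit that covers counting error only. The groups did not overlap. Cxcl1 was 10.5-fold lower in islet macrophages, a log2 difference of -3.40 ± 0.88 (SE, edgeR adjusted p = 0.027). It missed the threshold in DESeq2 (adjusted p = 0.0728), without islet replicate 2 (edgeR adjusted p = 0.0692) and with fat replicate 2, 4 or 6 left out (edgeR adjusted p = 0.097, 0.0836 and 0.0694).

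Cxcl2 (ENSMUSG00000058427.10, chromosome 5, 90903871 to 90905938, plus strand) was at 400, 142 and 342 CPM in islet libraries 2, 4 and 6, against 655, 556 and 612 CPM in fat libraries 2, 4 and 6. Every islet library was below every fat library, with islet library 4 the lowest, as for Cxcl1. The log2 difference was -1.04 ± 0.38 (SE, edgeR adjusted p = 0.0906). Cxcl2 passed as lower in DESeq2 (adjusted p = 0.0229), limma voom (adjusted p = 0.0491), edgeR with no filter (adjusted p = 0.0124) and edgeR without islet replicate 6 (adjusted p = 0.0461). It was also called without islet libraries 2 and 4 (log2 -0.91), in a fit where the lone islet library takes its spread from the fat libraries. Cxcl2 was the most abundant of the CXCR2 ligands per kilobase in each library of both tissues, and Cxcl1 stood at 0.0467, 0 and 0.0565 of it in the islet libraries, against 0.245, 0.269 and 0.168 in the fat libraries.

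Cxcl3 (ENSMUSG00000029379.10, chromosome 5, 90786103 to 90789600, plus strand) was scarce, with 51, 4 and 301 counts in islet libraries 2, 4 and 6, against 7, 8 and 17 counts in fat libraries 2, 4 and 6. As CPM these were 10.3, 1.15 and 40.6 in the islet libraries, against 0.662, 1.06 and 2.00 in the fat libraries. Islet libraries 2 and 6 were above every fat library, while islet library 4 lay within the fat range. The log2 difference was 3.82 ± 1.07 (SE, edgeR adjusted p = 0.037), or 14.1-fold higher, with islet library 6 at 7.10 times the mean of the other islet libraries. The call was lost in limma voom (adjusted p = 0.127), without islet replicate 2 (edgeR adjusted p = 0.0641), without islet replicate 6 (log2 2.21, edgeR adjusted p = 0.118) and with fat replicate 2, 4 or 6 left out (edgeR adjusted p = 0.155, 0.142 and 0.0909). Of 2159 different stretches of 50 bases in the Cxcl2 transcripts, 126 also occur in Cxcl3. Of 3587 in the Cxcl3 transcripts, 154 also occur in other genes, Cxcl2 and Dnajb1 among them. The split of those reads is uncertain. Cxcl1 shares none with another gene.

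The promoters of Cxcl1, Cxcl2 and Cxcl3 are shown because the genes share a run of bases near the start, while the transcripts differed in direction between the tissues. Capitals mark the longest run of bases found in all 3 stretches.
Cxcl1 promoter, chr5:90890995-90891244, plus strand: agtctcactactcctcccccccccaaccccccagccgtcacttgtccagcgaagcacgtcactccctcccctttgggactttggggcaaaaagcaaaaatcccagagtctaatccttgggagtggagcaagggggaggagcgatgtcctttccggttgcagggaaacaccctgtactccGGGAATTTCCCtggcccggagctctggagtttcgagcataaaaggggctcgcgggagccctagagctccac
Cxcl2 promoter, chr5:90903649-90903898, plus strand: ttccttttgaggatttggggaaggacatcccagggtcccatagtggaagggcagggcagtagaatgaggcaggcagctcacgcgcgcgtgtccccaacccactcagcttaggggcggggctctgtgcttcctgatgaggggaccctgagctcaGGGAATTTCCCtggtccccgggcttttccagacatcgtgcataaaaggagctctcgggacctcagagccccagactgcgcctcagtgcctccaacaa
Cxcl3 promoter, chr5:90785851-90786100, plus strand: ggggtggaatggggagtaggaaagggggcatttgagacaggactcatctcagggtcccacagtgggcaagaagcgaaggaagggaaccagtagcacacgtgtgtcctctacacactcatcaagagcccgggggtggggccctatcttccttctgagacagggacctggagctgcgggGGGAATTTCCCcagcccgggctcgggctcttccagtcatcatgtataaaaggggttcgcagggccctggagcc
The run is GGGAATTTCCC, 11 bases that read the same on both strands except for the central base, and it has the form of the kB elements that NF-kB binds in other genes. It begins 71 bases before the start in Cxcl1, 97 in Cxcl2 and 73 in Cxcl3. On either strand it occurs in 14 of the 32851 stretches, or 0.0426%, and these 3 genes supplied it. Promoter stretches were found for 7 of the 10 chemokines, and the other 4, those of Ccl3, Cxcl9, Cxcl10 and Pf4, do not hold it. Ccl4, Ccl5 and Cxcl16 were not searched.

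Neutrophils are the cells these ligands attract, and apart from Mmp9 their markers were scarce in both tissues. S100a9 had 0 counts in the islet libraries and stood at 0.823 to 1.59 CPM in the fat libraries, and Ly6g and Ngp had 0 counts in all 6 libraries. The neutrophil list summed to at most 2.22 CPM in islet and 192 to 303 CPM in fat libraries, of which the gelatinase gene Mmp9 alone gave 190 to 298 CPM. Fibroblasts also make Cxcl1, and 9 fibroblast markers summed to 0.605, 2.58 and 2.56 CPM in islet libraries 2, 4 and 6, against 391, 326 and 92.7 CPM in fat libraries 2, 4 and 6. Cxcl1 and the fibroblast sum had the same order over the fat libraries, while some of the markers, such as Dcn, were highest in fat library 4. Of the 9 markers, 7 had 0 counts in islet macrophages, Col1a1 and Dcn among them. The part of fibroblast RNA in the Cxcl1 result was not tested.

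Pf4 had the largest decrease of the 10 genes. Pf4 (ENSMUSG00000029373.7, chromosome 5, 90772435 to 90773383, plus strand) had 12, 50 and 57 counts in islet libraries 2, 4 and 6, against 5889, 7531 and 4451 counts in fat libraries 2, 4 and 6. These were 2.42, 14.3 and 7.68 CPM in the islet libraries, against 557, 999 and 524 CPM in the fat libraries. The groups were far apart, with the highest islet library well below the lowest fat library. Pf4 was 86.7-fold lower in islet macrophages, a log2 difference of -6.44 ± 0.66 (SE, edgeR adjusted p = 3.77e-04), and -7.06 without islet replicate 4. It passed under all 16 alternatives. Pf4 lies 12.7 kb before Cxcl3, which was higher in islet macrophages. Platelet and megakaryocyte markers were near 0, since 9 genes summed to 5.24 to 6.88 CPM in islet and 2.35 to 7.85 CPM in fat libraries. Gp6 and Gp9 had 0 counts in all 6 libraries, and Ppbp, the platelet chemokine gene, was at 2.82, 6.88 and 0.269 CPM in islet against 1.51, 2.39 and 1.06 CPM in fat libraries. The sums of some marker lists of other cell types moved with tissue in the same direction as Pf4 and Cxcl1. The 7 monocyte markers summed to 45.9 to 163 CPM in islet and 3348 to 4229 CPM in fat libraries, of which F13a1, the coagulation factor XIII A chain gene that some resident macrophages also express, gave 2.42 to 23.5 CPM in islet and 3121 to 3856 CPM in fat libraries. Ccr2, a receptor of monocytes, was at 45.8, 136 and 41.2 CPM in islet against 210, 231 and 361 CPM in fat libraries and fell (edgeR adjusted p = 0.0278). Vcan also fell, with at most 0.605 CPM in an islet library against 6.71 to 9.74 CPM in fat libraries (edgeR adjusted p = 0.00646). The classical monocyte marker Ly6c2 had 0 counts in the islet libraries and at most 0.471 CPM in a fat library. The 8 adipocyte markers summed to 11.2 to 28.0 CPM in islet and 76.7 to 275 CPM in fat libraries. Of them 6 had 0 islet counts, and Lipe, which did not pass the test, gave 10.8 to 27.6 CPM of the islet sum. Fabp4 gave 32.8 to 192 CPM of the fat sum. The 8 endothelial markers summed to 7.74 to 27.2 CPM in islet and 36.5 to 189 CPM in fat libraries. The 8 dendritic cell markers summed to 15.2 to 20.9 CPM in islet and 88.6 to 102 CPM in fat libraries. Cd209a gave 53.9 to 70.3 CPM of that fat sum. Cd209a and Zbtb46 fell, while Ccr7, Clec9a and Flt3 had higher means in islet macrophages without a call. Xcr1 did not pass the filter on low counts, and only islet library 2 (3.43 CPM) was above its fat libraries. The part of these lists in the Pf4 and Cxcl1 results was not tested.

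**Figure D3:**
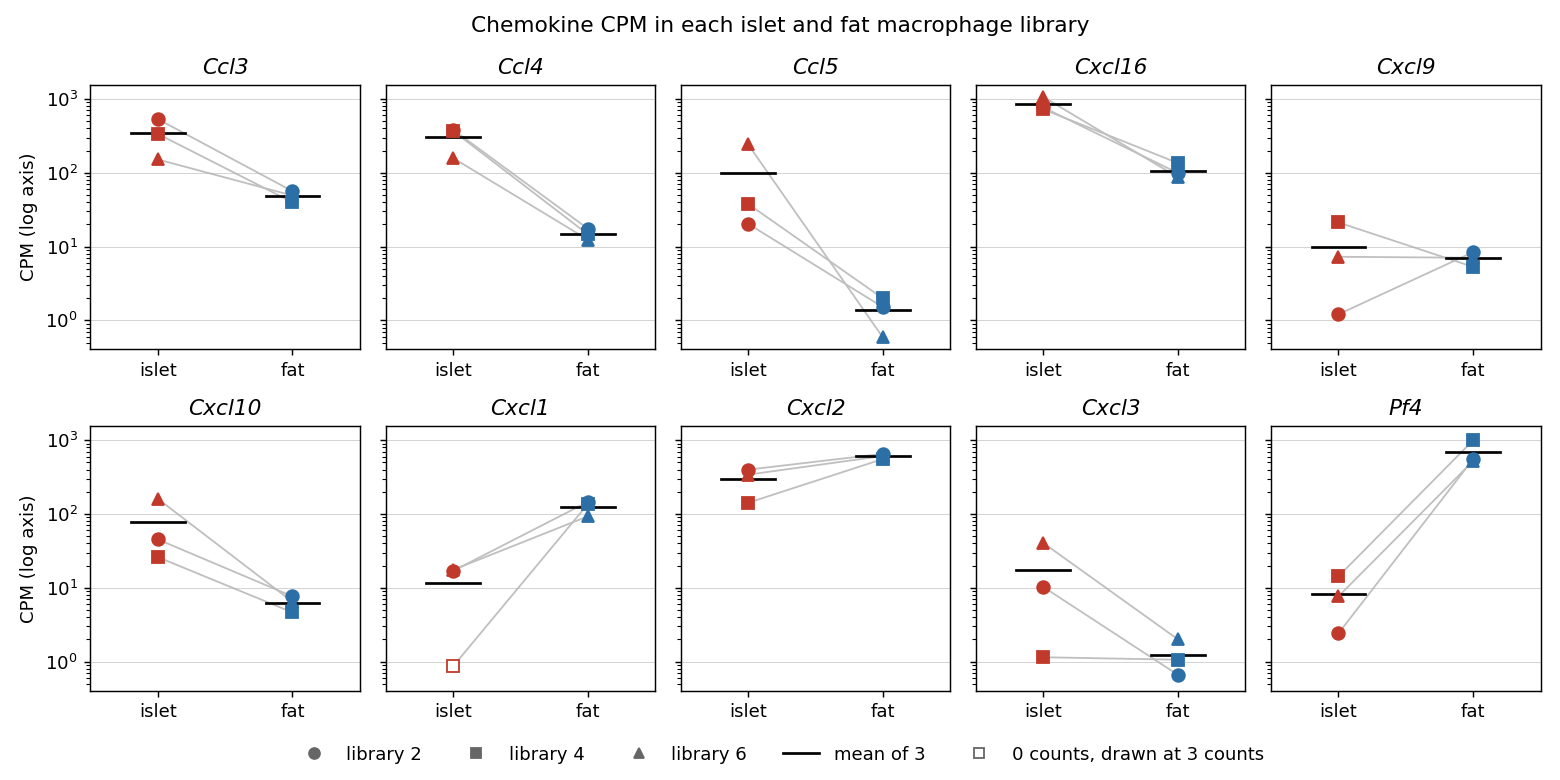
Each panel gives the CPM of 1 chemokine on a log axis in the 3 islet libraries (left, red) and the 3 fat libraries (right, blue), with libraries of the same number joined and the mean of each tissue as a bar. The tissues are apart for 8 genes and overlap for Cxcl9 and Cxcl3. The open square marks Cxcl1 in islet library 4, where 0 counts are drawn at the level of 3 counts.

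The islet libraries were not alike in these genes. Libraries 2 and 4 held the most Ccl3 and Ccl4, and library 6 held the most Ccl5, Cxcl10, Cxcl3 and Cxcl16 and, narrowly, Cxcl1. Library 4 was the lowest for Cxcl1, Cxcl2, Cxcl3, Cxcl10 and Cxcl16. The ratio of library 6 to the mean of libraries 2 and 4 was 0.348 for Ccl3 and 0.421 for Ccl4, against 8.34 for Ccl5, 7.10 for Cxcl3 and 4.51 for Cxcl10. A list of 20 interferon response genes had a ratio of 2.45, a list of 20 NF-kB response genes 1.21, and the heat shock and immediate early list 0.0713. Their part in the chemokine values was not tested. Cxcl9 and Pf4 were highest in library 4 and lowest in library 2. The sum of 10 acinar markers had the same order, at 6.25, 90.6 and 13.3 CPM in islet libraries 2, 4 and 6. Pnlip gave 0, 28.7 and 3.91 CPM of it, while Cel, Cpa1, Ctrb1 and Prss2 were lowest in library 6. The part of acinar RNA in the values of Cxcl9 and Pf4 was not tested. The highest fat library was 1.18 to 3.38 times the lowest for each of the 10 genes, while the highest islet library was 1.47 to 35.4 times the lowest for the 9 genes with a count in every islet library.

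**Figure D4:**
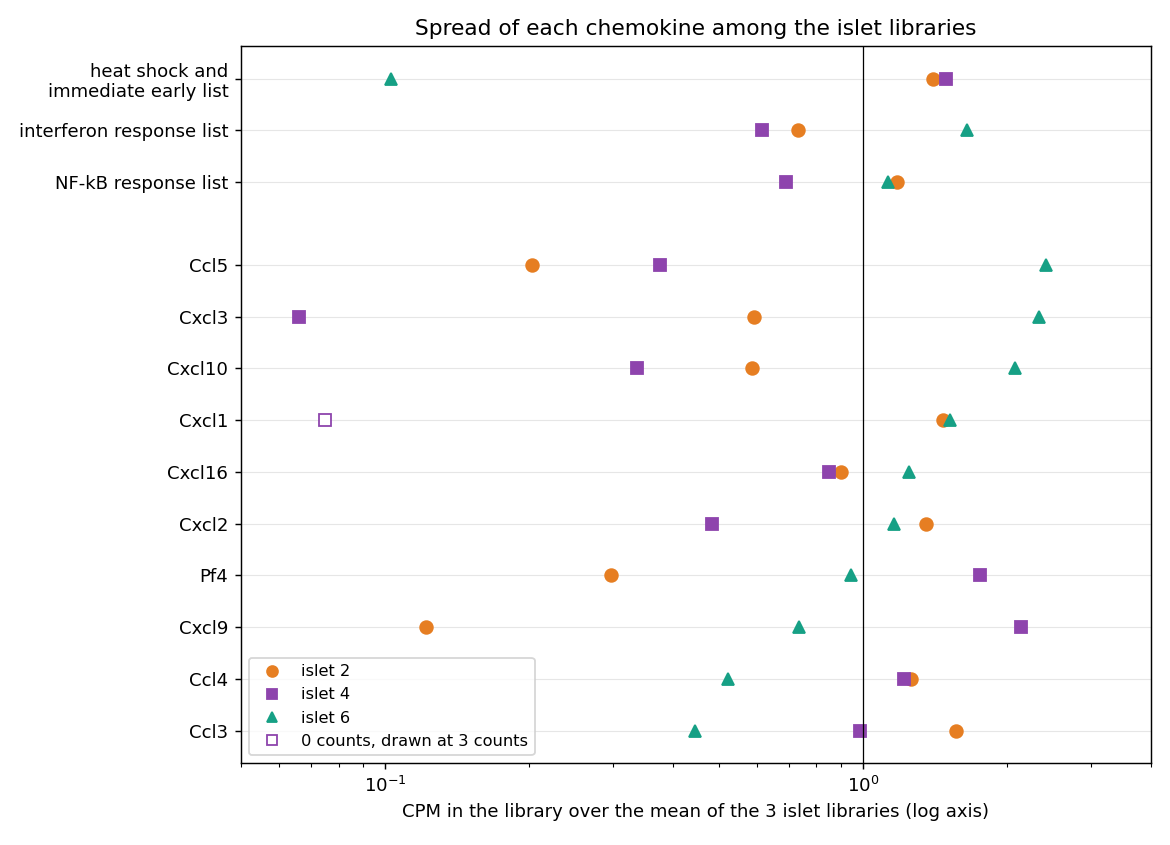
The CPM of each chemokine in islet libraries 2, 4 and 6 is drawn over the mean of the 3 islet libraries, on a log axis, with 3 gene list sums at the top. Library 6 lies to the right for Ccl5, Cxcl3 and Cxcl10 and to the left for Ccl3, Ccl4 and the heat shock and immediate early list.

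Lists of genes that respond to the same inducers were set beside the chemokines. Of 20 NF-kB response genes, which include inducers and feedback inhibitors, 4 rose, 6 fell and 10 did not pass, where 8.97% of all genes tested rose and 10.5% fell. The median log2 difference was 0.23, against 0.01 over all genes. Il1a and Il1b, the interleukin 1 genes, rose. Il1b was at 637, 380 and 439 CPM in islet libraries 2, 4 and 6, against 68.2, 24.4 and 44.3 CPM in fat libraries (log2 3.41 ± 0.42, edgeR adjusted p = 0.00104). Ier3, a stress-induced survival gene, and Zfp36 fell. Zfp36 encodes tristetraprolin, which promotes the decay of cytokine and chemokine mRNAs with AU-rich elements. It was at 739, 566 and 475 CPM in the islet libraries, against 3019, 2816 and 3267 CPM in the fat libraries (log2 -2.35 ± 0.31, edgeR adjusted p = 0.00132). Of 20 interferon response genes, 11 rose and 9 did not pass, where 8.97% of all genes tested rose, and the median log2 difference was 1.98. Some of those that rose were much higher in islet library 6 than in the other islet libraries. Rsad2, which encodes the antiviral protein viperin, was at 90.1, 21.8 and 659 CPM in islet libraries 2, 4 and 6, against 14.8, 18.0 and 18.6 CPM in fat libraries (edgeR adjusted p = 0.0307). Oasl1 was at 112, 40.7 and 413 CPM in islet against 9.93, 11.0 and 9.41 CPM in fat libraries (edgeR adjusted p = 0.00587). Others were even over the islet libraries. Gbp3, which encodes a guanylate-binding protein, was at 310, 261 and 318 CPM in islet libraries 2, 4 and 6, against 62.0, 49.5 and 58.6 CPM in fat libraries, and rose, with a log2 difference of 2.39 ± 0.24 (SE, edgeR adjusted p = 3.38e-04).

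Of 8 other CXC chemokine genes, 4 passed the filter on low counts, and 1 of these rose and 2 fell, where 8.97% of all genes tested rose and 10.5% fell. Cxcl14, a chemokine made at rest by several epithelia, was at 20.6, 25.5 and 26.3 CPM in islet libraries 2, 4 and 6, against 0.756, 0 and 0 CPM in fat libraries, and rose (log2 6.32 ± 0.90, SE, edgeR adjusted p = 0.00193). Cxcl12, the ligand of CXCR4 made by stromal cells, was at 0.806, 0 and 0 CPM in islet against 82.6, 93.3 and 65.5 CPM in fat libraries and fell (edgeR adjusted p = 2.02e-04). Cxcl13, the B cell chemokine, had 0 counts in the islet libraries, against 5.86, 54.8 and 23.4 CPM in fat libraries (edgeR adjusted p = 0.00532). Cxcl12 and the fibroblast marker Col1a1 were both lowest in fat library 6 and near 0 in the islet libraries. Col1a1 was at 57.8, 32.9 and 12.7 CPM in fat libraries 2, 4 and 6, so it was highest in fat library 2, where Cxcl12 was highest in fat library 4. The fibroblast marker Dcn was also highest in fat library 4 (72.7, 92.7 and 16.8 CPM). The part of stromal RNA was not tested, nor was that of islet endocrine RNA in the Cxcl14 values. Of the receptors and scavengers of these chemokines, Ccr1, a receptor of Ccl3 and Ccl5 products, was at 51.2, 46.7 and 84.2 CPM in islet against 98.0, 95.5 and 86.7 CPM in fat libraries (edgeR adjusted p = 0.158). Ccrl2 and Cxcr3 had edgeR adjusted p = 0.491 and 0.991. Cxcr6, the receptor of CXCL16, had 0 counts in the islet libraries and at most 0.265 CPM in a fat library.

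For the chemokine of each role with the highest mean CPM, the genes with the closest pattern over the 6 libraries were looked up among 7939 genes by Pearson correlation of log2 CPM. These values describe 6 points that share tissue, depth and library make-up, and most of each comes from the split between tissues. Ccl3 was closest to Spn, Gm8355 and Gm12346 (r = 0.998 to 0.994), and Cxcl16 to Col27a1, Fth1 and Src (r = 0.997 to 0.996). Cxcl2 was closest to Cdk16, Ppp1r13b and Ube2s (r = 0.997 to 0.996), Cxcl10 to Arl5c, Rnf213 and Tcirg1 (r = 0.994 to 0.993), and Pf4 to Msr1, Aldh7a1 and Ccdc50 (r = 0.998 to 0.996).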

How the data were processed

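RNA of sorted macrophages was measured by stranded total RNA sequencing from 10 ng of RNA, per the labels' protocols. The deposited values are raw counts per gene, which the authors had not normalised; per the submitters' processing notes STAR, featureCounts, Subread 1.6.4 and GRCm38 were used, and the labels used here state neither annotation nor strandedness of counting. Of 50600 genes, 50376 matched GENCODE M21, which gave coordinates, exon lengths and exon overlaps. R 4.3.3 and edgeR 4.0.16 were used for filterByExpr by tissue, TMM scaling, robust quasi-likelihood fits on tissue alone, and Benjamini-Hochberg adjustment over 12152 genes at a threshold of 0.05. Standard errors were taken from the log2 difference and its F statistic. Intervals and floors of 3 counts cover counting error only.

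Alternatives were DESeq2 1.42.0, voom in limma 3.58.1, size factors by RLE or upper quartile, other filters on low counts, the replicate number as a block, protein-coding genes alone, the heat shock and immediate early list left out, and each library left out. The fit without islet libraries 2 and 4 was chosen after seeing the data. The batch labels m2, m4 and m6 and the design text, which calls the tissues autologous, pair the same numbers; correlations of deviations from the tissue mean, across genes, were 0.046, 0.063 and -0.0076 for the same number and -0.142 to 0.103 for other numbers. The members and the gene lists were chosen with earlier results of these data known. Besides the 10 chemokines, the rule for names allowed from each list up to 2 genes with the lowest adjusted p in each direction, not all of which are named, and took the 3 genes closest in pattern to the chemokine of each role with the highest mean CPM. Other genes, such as Rsad2, Oasl1, Ccr2, the overlapping neighbours, defining markers and receptors, and the shared promoter runs were chosen after their values or sequences were seen. Promoter sequences are from RefSeq, GRCm38.p6. Of the genes that the rule and the lists cover, 2 are not reported here.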

Additional observations from a re-analysis of the deposited data

How the results depend on the processing

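Ccl3, Ccl4, Cxcl10, Cxcl16 and Pf4 kept their direction and their call under all 16 alternatives, and Ccl5 under 15. Among the 16 is the fit without islet libraries 2 and 4, whose calls rest on the spread of the fat libraries alone. Cxcl1 kept its direction under 16 but lost its call under 5, Cxcl3 lost its call under 6 of the 15 that gave a value, and Cxcl2 gained one under 5. Cxcl3 was not tested where all 3 libraries of a tissue had to reach 1 CPM. Cxcl9 turned negative with limma voom (log2 -0.37), the replicate block (-0.084), without islet replicate 4 and without islet libraries 2 and 4 (-0.014), and ranged from -0.68 to 1.01 when single libraries were left out. The causes were not tested. With the replicate block 6 chemokines rose and 2 fell, with 884 genes higher and 1103 lower in all, and no call among the 10 changed. Leaving out single libraries gave 5 to 6 chemokines higher and 1 to 3 lower, and 466 to 1649 genes higher and 593 to 2022 lower over all genes, against 1090 and 1271 with all libraries. Without islet libraries 2 and 4 these were 2064 and 2916. Without the filter 1486 rose and 1879 fell. Limma voom called 4 chemokines higher and 3 lower. The fat side of the folds rests on 36 counts in all for Ccl5 and 32 for Cxcl3.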
